A study of Mus musculus with 6 samples.

Results

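AP-1 is a dimer of Fos and Jun proteins that binds DNA through basic leucine zipper (bZIP) domains and passes signals from MAP kinases on to transcription. Its genes are immediate early genes, which are switched on within minutes of stimulation without new protein synthesis, and T cells use them together with NFAT after T cell receptor ligation. The inducible Hsp70 genes answer another kind of stress: Hsf1 binds their promoters when unfolded protein accumulates, and the Hsp70 chaperone made from them refolds that protein. Both groups are also known to rise while tissue is dissociated and cells are sorted. Here 10 such genes were described, chosen by name: the Fos genes Fos and Fosb, the Jun genes Jun, Junb and Jund, the stress-induced bZIP gene Atf3, the immediate early genes Dusp1 and Ier2, and the Hsp70 genes Hspa1a and Hspa1b. They are 10 of 36930 features in the tables.

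The RNA came from FACS-purified BM Tregs of 3 naive mice and 3 CML mice. All 6 mice were Foxp3-DTR-GFP animals at postnatal week 8, in which the Foxp3 locus drives the diphtheria toxin receptor and GFP, so that both groups carry the same alleles. CML was modelled with LSKs (lineage-negative Sca-1+ c-Kit+ stem and progenitor cells) that had been transduced with a BCR-ABL1-GFP retrovirus and injected i.v. into nonirradiated syngeneic recipients, which keep their own hematopoiesis beside the leukemic cells. GFP therefore marks Tregs and leukemic cells alike, and neither the gate of this sort nor the day after leukemia induction is given for these samples in the sources used here. Each mouse gave 1 library, and values are RPKM, that is, reads scaled to the length of the feature and to the reads of the library.

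The libraries differed in depth. Steps in the low values gave an estimate of 829181 reads for CML replicate 2, 2286190 for CML replicate 3 and 5187987 to 9751911 for the other 4 libraries. In CML replicate 2 the 10 highest features held 50.7% of the summed RPKM, compared with 28.5% to 31.3% in the others. Treg and T cell markers were present in every library, with a summed level over 9 genes (Foxp3, Il2ra and Ctla4 among them) of 2367 to 3220 RPKM in CML and 2312 to 2671 RPKM in naive libraries. The 12 granulocyte and myeloid progenitor markers summed to 10.2 RPKM in CML replicate 1, to 207 and 223 RPKM in CML replicates 2 and 3, and to 30.8 to 53.9 RPKM in naive libraries, while Ly6g and Retnlg were at 0 in all 6. The 8 erythroid markers in the tables summed to 35.6 to 206 RPKM in CML and 5.01 to 29.6 RPKM in naive libraries. The 8 monocyte and macrophage markers summed to 82.2 to 122 RPKM in CML and 74.7 to 88.0 RPKM in naive libraries. Most of each sum was Ccr2 and Cd68. Ccr2 was at 56.8 ± 28.7 RPKM in CML and 38.2 ± 11.2 RPKM in naive libraries (SD, n = 3 each). Cd68 was at 32.2 ± 13.2 and 34.5 ± 10.8 RPKM, and both genes overlapped between the groups. The B cell markers summed to 3.18 to 8.80 RPKM in CML and 8.42 to 10.7 RPKM in naive libraries. These were mostly Cd79b, except in CML replicate 2, where the sum was Cd79a, with Pax5 and Ebf1 at 0 in all 6. For 5 CD8 T and NK cell markers, the sum was 66.1 to 79.9 RPKM in CML and 36.7 to 74.9 RPKM in naive libraries. For 5 stem and progenitor markers, it was 13.6 to 24.4 RPKM in CML and 14.8 to 20.4 RPKM in naive libraries. Both sums overlapped between the groups. The part of these other transcripts in the values below was not tested. In bulk RNA, fewer expressing cells and less RNA per cell cannot be told apart.

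The promoters of the Hsp70 pair are shown first, because these genes had the largest SD in RPKM of all 10 across the naive mice. They are the 250 bases before the annotated start in the RefSeq table for GRCm38.p6, both on the minus strand and written 5′ to 3′ in the direction of transcription, at chr17:34972157-34972406 for Hspa1a and chr17:34959239-34959488 for Hspa1b. Capitals mark a match to the letters searched for a heat shock element, the motif that Hsf1 binds.
Hspa1a: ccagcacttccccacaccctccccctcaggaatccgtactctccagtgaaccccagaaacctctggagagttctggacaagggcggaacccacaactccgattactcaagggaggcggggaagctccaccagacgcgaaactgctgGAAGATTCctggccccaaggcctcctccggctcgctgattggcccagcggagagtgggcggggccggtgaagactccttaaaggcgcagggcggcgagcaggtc
Hspa1b: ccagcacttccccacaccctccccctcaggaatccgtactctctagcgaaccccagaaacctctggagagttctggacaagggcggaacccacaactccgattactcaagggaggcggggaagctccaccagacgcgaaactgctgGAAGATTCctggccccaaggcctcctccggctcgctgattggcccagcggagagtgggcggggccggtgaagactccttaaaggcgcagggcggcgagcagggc
The promoters differed at 3 of 250 bases, and the match stood at the same place in both, starting 104 bases before the start. The element was searched as GAANNTTC or TTCNNGAA, each of which reads the same on both strands. Of the 10 genes, 9 had a promoter in the table (Ier2 had none), and Jun, with a match starting 128 bases before its start, was the third to hold one. The same letters occurred in 12.8% of 32851 promoter windows of this length. The AP-1 site TGANTCA occurred in 0 of the 9 promoters and in 6.75% of all windows. The CRE, TGACGTCA, to which Creb and Atf proteins bind, occurred in that of Dusp1 and in 1.55% of all windows. The CArG box of serum response factor, searched by its consensus, was in 0 of the 9 windows and in 1.47% of all. These matches describe the letters in the windows only, and sites outside them or with other letters were not searched. The RefSeq starts differ from the GENCODE ones for some genes. For Jund, the window ends at base 70697738, and the GENCODE gene starts at 70698949.

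Except for Atf3, all of these genes were strongly expressed in BM Tregs of both groups. In naive mice, Jund had the highest mean level (443 ± 66.8 RPKM, SD, n = 3), followed by Jun, Hspa1b, Hspa1a, Fos, Junb, Dusp1 and Fosb, and each neighbour in that order overlapped the next across the libraries. The place of Hspa1a and Hspa1b in this order rested on naive replicate 3. In naive replicates 1 and 2, Hspa1a (167 and 159.6 RPKM) and Hspa1b (177 and 169 RPKM) were both below Fosb (274 and 173 RPKM). In CML mice, Jund was again at the top (402 ± 34.4 RPKM), followed by Hspa1b, Hspa1a, Jun, Dusp1, Fos, Junb and Fosb, also with overlapping neighbours. Ier2 was the lowest gene other than Atf3 in 6 of 6 libraries and did not overlap Fosb in either group. For the 9 genes other than Atf3, a value rested on an estimated 110 to 23473 reads.

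**Figure D1:**
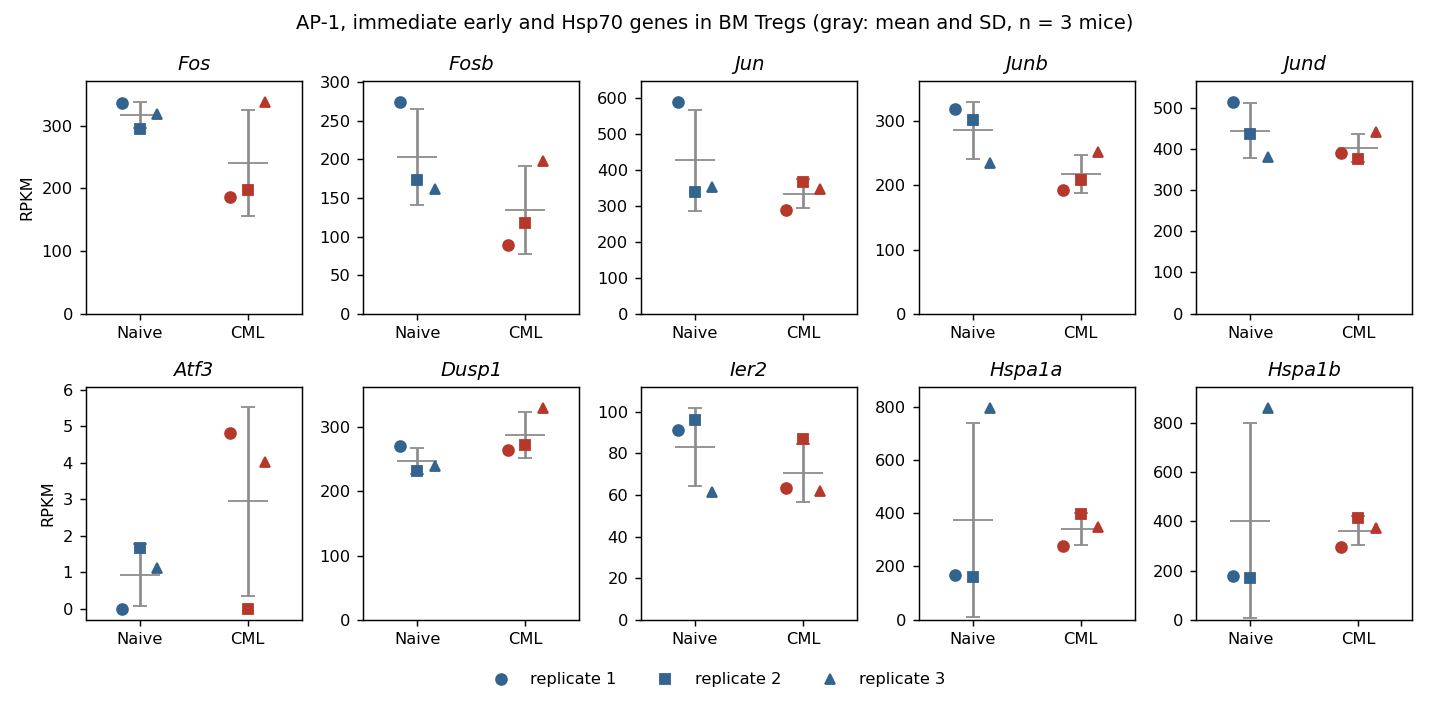
Level of each of the 10 genes in RPKM (vertical axis, with its own scale for each gene) in the 3 naive (blue) and 3 CML (red) BM Treg libraries; marker shape gives the replicate number, and gray bars give the mean and SD. The groups overlap for every gene, and naive replicate 3 lies far above all other libraries for Hspa1a and Hspa1b.

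The question of the comparison was which transcripts differ between Tregs of leukemic and of naive BM. None of the 10 genes differed between the groups by the test. All 10 passed the filter of a mean of at least 1 RPKM. With limma on log2(RPKM + 1), 0 of 10 reached an adjusted p under 0.05 with a fold of 1.5, compared with 0.172% of the 13923 features tested (24 features). At an unadjusted p under 0.05 with the same fold, 0 of 10 were called, where 2.61% of all features were called higher in CML and 5.94% lower. For 0 of 10 genes did all 3 CML libraries lie on one side of all 3 naive libraries, whereas 17.1% of all features were apart in this way, 4.84% higher and 12.2% lower in CML. The log2 fold change (CML minus naive) was above 0 for 4 genes and below 0 for 6, and its median was -0.18, next to -0.18 over all features tested. Among the 4 were Hspa1a and Hspa1b, which are near copies. Quantile normalization moved the median of all features to -0.0068, and under it no estimate of the 10 changed sign. With 3 mice in each group, the intervals of several genes still included changes past 1.5-fold in either direction.

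Fos proteins do not form stable dimers with each other and need a Jun partner to bind DNA. Fos, on chromosome 12 (GRCm38, GENCODE M21, 85473890 to 85477273, plus strand), was at 187, 197 and 338 RPKM in CML replicates 1, 2 and 3 and at 336, 295 and 319 RPKM in naive replicates 1, 2 and 3. CML replicates 1 and 2 were below all naive libraries, and CML replicate 3 was above them. The means were 241 ± 84.3 and 317 ± 20.7 RPKM (SD, n = 3 each), and the log2 fold change was -0.45 (SE 0.23, 95% interval -0.99 to 0.09, limma adjusted p = 0.582). Fosb, on chromosome 7 (19302696 to 19310051, minus strand), was at 88.7, 117 and 198 RPKM in CML and at 274, 173 and 162 RPKM in naive libraries. Here too CML replicates 1 and 2 were below all naive libraries, and CML replicate 3 was within the naive range. The log2 fold change was -0.63 (SE 0.32, interval -1.38 to 0.11, limma adjusted p = 0.572). Both estimates depended on single libraries. Without CML replicate 3, Fos gave -0.72 (interval -1.04 to -0.39, limma adjusted p = 0.237) and Fosb -0.95 (interval -1.61 to -0.28, limma adjusted p = 0.356), so that both passed the unadjusted threshold and neither the adjusted one. Without CML replicate 1, they moved the other way, to -0.29 for Fos (interval -0.90 to 0.32) and -0.37 for Fosb (interval -1.17 to 0.42), and without naive replicate 1 Fosb was at -0.40 (interval -1.25 to 0.45). CML replicate 3 also had the highest granulocyte and erythroid marker sums of the 6 libraries, as given above, and their part in this was not tested.

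The Jun genes encode the subunits that can bind as homodimers or with Fos proteins. Jun, an intronless gene on chromosome 4 (95049034 to 95052222, minus strand), was at 289.9, 368 and 346 RPKM in CML and at 589.7, 339.7 and 353 RPKM in naive libraries. Naive replicate 1 stood above all other libraries, while the other 2 naive libraries lay within the CML range (log2 fold change -0.31, SE 0.23, interval -0.85 to 0.23, limma adjusted p = 0.689). Junb, which often opposes Jun in transactivation and lies on chromosome 8 (84974484 to 84978718, minus strand), was at 194, 209 and 252 RPKM in CML and at 319, 302 and 236 RPKM in naive libraries. Only CML replicate 3 and naive replicate 3 crossed over, and the log2 fold change was -0.39 (SE 0.18, interval -0.80 to 0.02, limma adjusted p = 0.539). Leaving out either of these libraries separated the groups, with -0.49 (interval -0.92 to -0.07, limma adjusted p = 0.404) without CML replicate 3 and -0.52 (interval -0.95 to -0.09, limma adjusted p = 0.655) without naive replicate 3, both short of 1.5-fold. Jund, the Jun gene with the steadiest basal expression in most cells, lies on the same chromosome (70698949 to 70700616, plus strand). It was at 391, 375 and 441 RPKM in CML and at 513, 437 and 380.1 RPKM in naive libraries. Its ranges overlapped widely, and its log2 fold change of -0.13 (SE 0.16, interval -0.50 to 0.24, limma adjusted p = 0.791) was the smallest of the 10 in size. The estimates of all 5 Fos and Jun genes stayed below 0 in 17 of 17 alternative analyses, which reuse the same libraries, but some came close to 0. Without naive replicate 1, Jun was at -0.05 and Jund at -0.02, and quantile normalization put Jund at -0.01. In the main fit, 8946 of the 13923 features tested were also below 0, with a median of -0.18 over all of them. In level, Jund was the highest of the 5 in 5 of 6 libraries, with Fosb the lowest in 6 of 6.

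**Figure D2:**
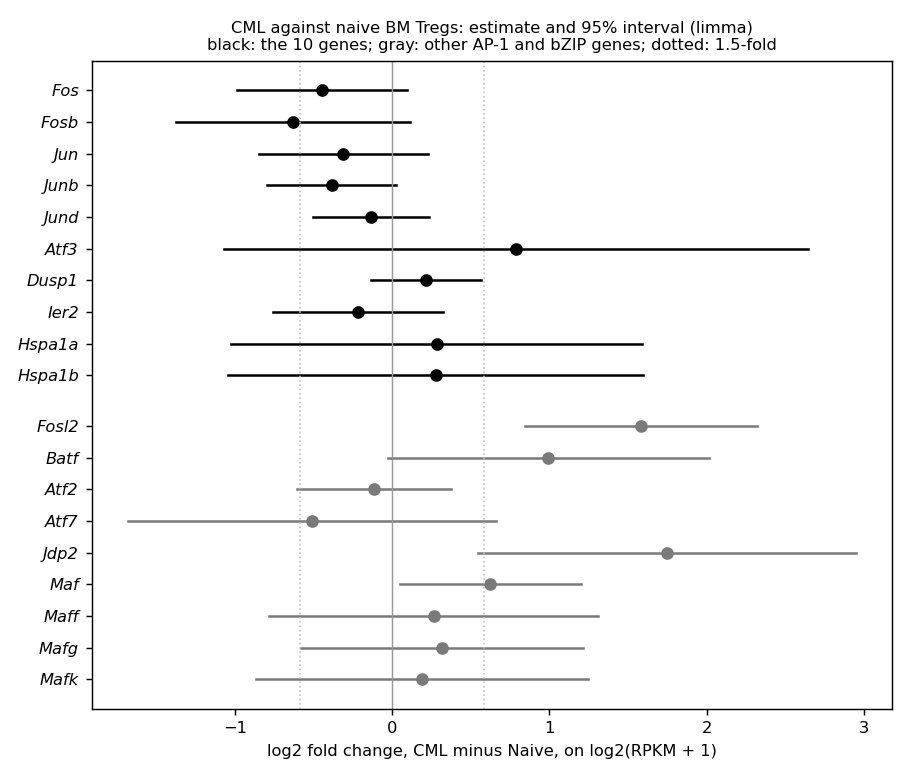
Log2 fold change between CML and naive BM Tregs (points) with 95% limma intervals (lines) on log2(RPKM + 1), for the 10 genes in black and for the 9 other AP-1 and bZIP genes that passed the filter in gray; dotted lines mark 1.5-fold. All 10 black intervals include 0, whereas those of Fosl2, Jdp2 and Maf lie above 0.

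Of the 12 other AP-1 and bZIP genes listed, 9 passed the filter. At an unadjusted p under 0.05 with a fold of 1.5, 3 were higher and 0 lower in CML. Among all features tested, 2.61% were higher and 5.94% lower. The median log2 fold change of the 9 genes was 0.32. None reached an adjusted p under 0.05. Fosl2, which encodes the Fos family member Fra-2, was at 22.4, 24.6 and 24.97 RPKM in CML and at 4.91, 8.37 and 9.41 RPKM in naive libraries. Every CML library was thus above every naive library, by a log2 fold change of 1.58 (SE 0.32, limma adjusted p = 0.161). Jdp2, a bZIP repressor that pairs with Jun proteins, was at 9.38, 14.8 and 27.5 RPKM in CML and at 6.40, 4.59 and 1.97 RPKM in naive libraries (log2 fold change 1.75, SE 0.52, limma adjusted p = 0.328). Maf, a regulator of IL-10 in T cells, was at 70.6, 57.4 and 91.96 RPKM in CML and at 38.6, 43.0 and 59.9 RPKM in naive libraries, with overlap between the groups (log2 fold change 0.62, SE 0.25, limma adjusted p = 0.487). Batf, the partner of Irf4 and of Jun proteins in effector Tregs, is given because its libraries did not overlap, and so was chosen after its values were seen. It was at 65.0, 41.5 and 163 RPKM in CML and at 35.7, 39.2 and 38.5 RPKM in naive libraries (log2 fold change 0.99, SE 0.44, limma adjusted p = 0.526).

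The make-up of the Fos family was examined within each library, after the values had been seen, since a share does not depend on the scaling between libraries. Fosl2 made up 7.503%, 7.26% and 4.45% of the summed RPKM of Fos, Fosb, Fosl1 and Fosl2 in CML replicates 1, 2 and 3, and 0.797%, 1.75% and 1.92% in naive replicates 1, 2 and 3. All CML shares were above all naive shares (6.40 ± 1.69% and 1.49 ± 0.606%, SD, n = 3 each), which restates the higher level of Fosl2 and is given as a description. Fos held 60.4 ± 2.26% and 60.5 ± 5.35% in CML and naive libraries, and Fosb held 33.2 ± 2.99% and 38.0 ± 5.89%, with shares that overlapped between the groups. The summed level of the family was 399 ± 141 RPKM in CML and 528 ± 76.8 RPKM in naive libraries (exact 2-sided permutation p = 0.3, where 3 against 3 cannot go below 0.1), and that of the Jun family was 955 ± 82.6 and 1157 ± 237 RPKM (exact 2-sided permutation p = 0.2). Within the Jun family, Jund took 42.2 ± 2.66% in CML and 38.6 ± 2.27% in naive libraries, Jun 35.1 ± 3.15% and 36.5 ± 4.98%, and Junb 22.8 ± 1.28% and 24.9 ± 2.83%.

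**Figure D3:**
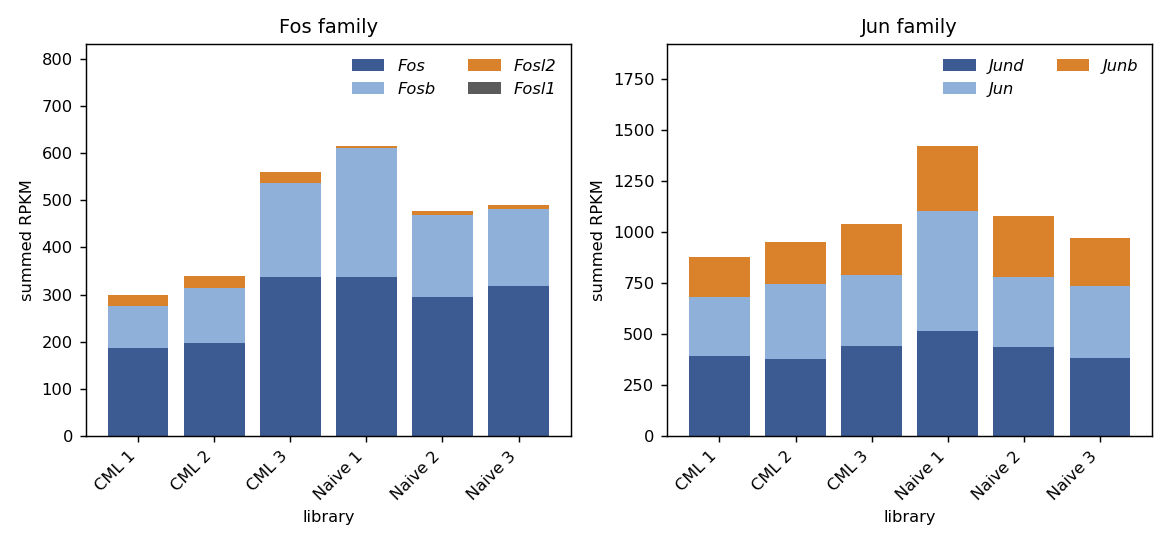
Summed RPKM of the Fos family (left) and the Jun family (right) in each of the 6 libraries, as stacked bars from 0 with 1 color for each gene. Fosl2 forms a visible band in the CML libraries (7.503%, 7.26% and 4.45% of the sum) and a thin one in the naive libraries, and naive replicate 1 has the highest sum in both families.

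Atf3 encodes a bZIP protein that is induced by amino acid shortage, unfolded protein and other stress, and it was nearly silent here. The gene lies on chromosome 1 (191170296 to 191218039, minus strand). It was at 4.81, 0 and 4.01 RPKM in CML and at 0, 1.67 and 1.13 RPKM in naive libraries. The reads behind these values are few, at an estimated 73, 0 and 18 in CML and 0, 29 and 22 in naive libraries, and it passed the filter only through its level in CML. The 0 in CML replicate 2 allows a level of up to 1.82 RPKM (3 reads, counting error only), above either naive library with reads, and that in naive replicate 1 allows up to 0.291 RPKM. The log2 fold change of 0.79 had a wide interval (-1.07 to 2.64, SE 0.80, limma adjusted p = 0.755). Without CML replicate 2 it was 1.60 (interval 0.22 to 2.98, past the unadjusted threshold, limma adjusted p = 0.339).

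Dusp1 and Ier2 are immediate early genes outside the bZIP family. Dusp1 encodes a nuclear phosphatase that switches off p38 and Jnk, and so limits the signals that induce AP-1. Its gene lies on chromosome 17 (26505590 to 26562128, minus strand). It was at 264, 272 and 329 RPKM in CML and at 271, 232 and 239.8 RPKM in naive libraries. It was one of the 4 genes with an estimate above 0, but naive replicate 1 lay between CML replicates 1 and 2 (288 ± 35.7 and 248 ± 20.6 RPKM, log2 fold change 0.22, SE 0.15, interval -0.14 to 0.57, limma adjusted p = 0.671). Quantile normalization moved it to 0.32 and separated the groups (interval 0.04 to 0.61, limma adjusted p = 0.4), still short of 1.5-fold. Ier2, which encodes a small nuclear protein and lies on chromosome 8 (84661331 to 84662852, minus strand), was at 63.5, 86.9 and 61.7 RPKM in CML and at 91.2, 96.2 and 61.4 RPKM in naive libraries. Naive replicate 3 had the lowest level of all 6, and the log2 fold change was -0.22 (SE 0.23, interval -0.76 to 0.32, limma adjusted p = 0.765). Of the 8 other dual-specificity MAP kinase phosphatases that passed the filter (9 listed), 1 was higher and 1 lower in CML at the unadjusted threshold. The shares of all features were 2.61% higher and 5.94% lower. Dusp6, which acts on Erk in the cytoplasm, was at 17.3 ± 3.83 RPKM in CML and 7.89 ± 1.51 RPKM in naive libraries (log2 fold change 1.04, SE 0.32, limma adjusted p = 0.357), and Dusp10, which acts on p38 and Jnk, was at 26.0 ± 8.89 and 47.5 ± 11.1 RPKM (log2 fold change -0.88, SE 0.31, limma adjusted p = 0.425).

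The Hsp70 genes Hspa1a and Hspa1b had the largest SD of all 10 among naive mice, through a single library. Hspa1a was at 278, 398 and 347 RPKM in CML replicates 1, 2 and 3, and at 167, 159.6 and 793 RPKM in naive replicates 1, 2 and 3. Hspa1b was at 297, 413 and 374 RPKM in CML and at 177, 169 and 859 RPKM in naive libraries. All 3 CML libraries therefore lay between the 2 low naive libraries and the high naive replicate 3, in which Hspa1a was 4.85 times the mean of the other naive libraries. The mean level was lower in CML for both (341 ± 60.5 and 373 ± 364 RPKM for Hspa1a, 361 ± 59.4 and 402 ± 396 RPKM for Hspa1b), while the log2 fold change was above 0 (0.28 for each, with intervals of -1.02 to 1.59 and -1.05 to 1.60 and limma adjusted p = 0.882 and 0.888). The sign thus depended on the scale. Without naive replicate 3, the log2 fold change was 1.04 for both (interval 0.55 to 1.53 for Hspa1a and 0.57 to 1.52 for Hspa1b, both past the unadjusted threshold, limma adjusted p = 0.365), and without naive replicate 1 or 2 it was below 0. The estimate for this pair therefore depended on each of the 3 naive libraries.

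Hspa1a and Hspa1b are near copies, and their values cannot be treated as separate measurements. Both are intronless and lie on the minus strand of chromosome 17 (GRCm38, GENCODE M21), at 34969190 to 34972156 and 34956436 to 34959238, with starts 12918 bases apart. Their coding sequences were 99.4% identical, with 8 mismatches and 3 gap bases over 1923 and 1926 bases. Of the stretches of 76 bases, the length of a read, that make up the transcript, 52.5% of those of Hspa1a and 55.6% of those of Hspa1b occur in the other gene. How the software assigned such reads is not given in the sources used here, so the split between the copies is uncertain. The ratio of Hspa1a to Hspa1b lay between 0.924 and 0.964 in all 6 libraries. Hspa1l, a relative that starts 547 bases from Hspa1a on the other strand, shares 7.01% of its stretches with Hspa1a. It was at 21.5, 31.3 and 20.7 RPKM in CML and at 10.01, 9.65 and 50.2 RPKM in naive libraries, which was 0.0595 to 0.0786 of Hspa1a, so that its level followed that of Hspa1a and is uncertain in the same way.

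The high level in naive replicate 3 was not shared by the AP-1 genes. The ranking covered the 873 features with a mean of at least 100 RPKM and with reads in every naive library. Among these, the ratio of naive replicate 3 to the higher of the other naive libraries was 4.85 for Hspa1b and 4.74 for Hspa1a, which ranked 1 and 2. Dnajb1, the Hsp40 cochaperone of Hsp70, ranked 3 with 2.11 and was the only other feature at 2 or more, where the median feature was at 0.886. Among other chaperones, Dnaja1 ranked 7 (1.47), Hspa8, the constitutive Hsc70, ranked 10 (1.45), and Hsp90aa1, the inducible Hsp90, ranked 11 (1.44). Fos ranked 285 (0.947), Jun 820 (0.598) and Fosb 822 (0.591). These ratios were computed after the values had been seen and describe this library.

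**Figure D4:**
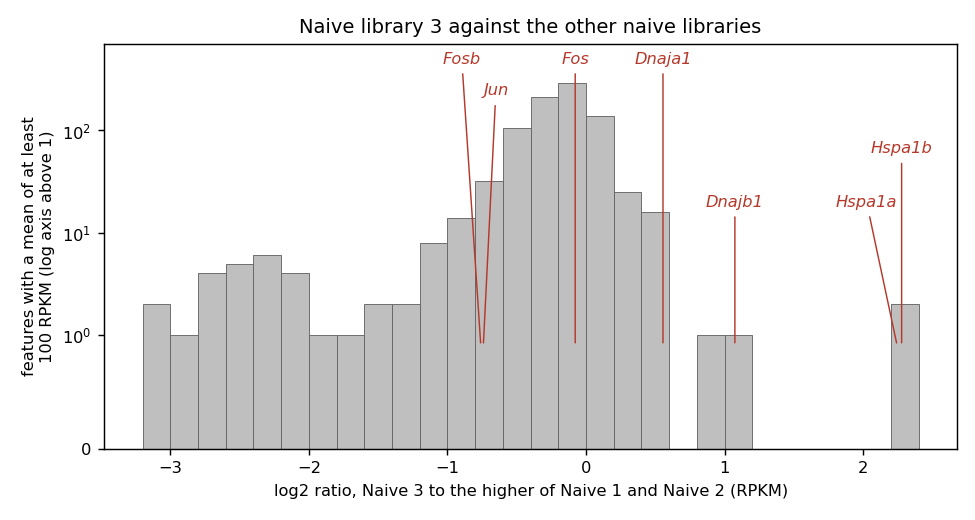
Number of features (vertical axis, logarithmic above 1) by the log2 ratio of RPKM in naive replicate 3 to the higher of naive replicates 1 and 2, for 873 features with a mean of at least 100 RPKM and with reads in every naive library. Hspa1a and Hspa1b stand at the right end (ratios of 4.74 and 4.85), followed by Dnajb1 (2.11), while Fos, Jun and Fosb lie below 0.

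The wider heat shock list showed the same library to a smaller degree. Of 24 other heat shock response genes, 23 passed the filter, and 16 of these (69.6%) were higher in naive replicate 3 than in both other naive libraries, compared with 26.4% of all features tested. Naive replicate 3 held the highest level of the 6 libraries for 10 of the 23 (43.5%), compared with 9.58% of all features tested. Both counts include Hspa1l, which shares stretches with Hspa1a and whose level is uncertain for that reason. Dnajb1 was at 139, 174 and 201 RPKM in CML and at 183, 139 and 386 RPKM in naive libraries, and Hsph1, the Hsp110 nucleotide exchange factor of Hsp70, was at 60.4, 70.2 and 101 RPKM in CML and at 81.3, 41.3 and 149 RPKM in naive libraries. Hsf1 itself was at 33.0, 34.8 and 36.3 RPKM in CML and at 37.8, 39.8 and 38.3 RPKM in naive libraries, so that every CML library was below every naive library by a small amount (log2 fold change -0.15, SE 0.18, limma adjusted p = 0.793). Dnajb1, Hsph1 and Hsf1 were named after their values had been seen. Between the groups, 0 of the 23 were higher and 2 lower in CML at the unadjusted threshold (2.61% and 5.94% of all features). The median log2 fold change was 0.03. By overlap, 0 were apart and higher and 2 (Hsf1 and Dnajb4) apart and lower (4.84% and 12.2% of all features). The 2 past the unadjusted threshold were Dnajb4, an Hsp40 (21.3 ± 2.54 and 36.6 ± 9.42 RPKM, log2 fold change -0.73, SE 0.26, limma adjusted p = 0.439), and Hspe1, the mitochondrial Hsp10 (56.6 ± 9.86 and 94.2 ± 36.0 RPKM, log2 fold change -0.67, SE 0.29, limma adjusted p = 0.51).

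**Figure D5:**
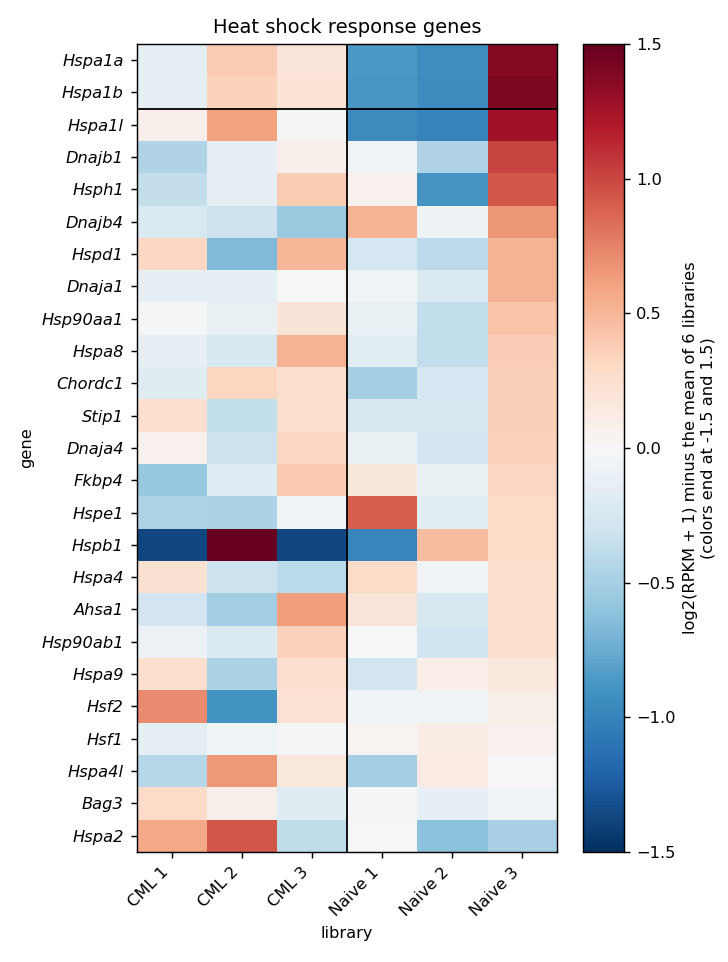
Heat map of log2(RPKM + 1) of Hspa1a, Hspa1b and the 23 other heat shock response genes that passed the filter, each minus its mean over the 6 libraries (columns), with rows below the line ordered by naive replicate 3. Naive replicate 3 holds the highest level for 10 of the 23 genes below the line, led by Hspa1l and Dnajb1. Hspa1l shares stretches with Hspa1a, so its level is uncertain.

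Other immediate early genes had estimates in both directions. Of 26 listed, 25 passed the filter, and 3 were higher and 1 lower in CML at the unadjusted threshold (2.61% and 5.94% of all features). The median log2 fold change of the list was -0.20, and 0 genes were past the adjusted threshold. Egr2, a zinc finger gene induced by T cell receptor signals, was at 8.56, 11.5 and 13.5 RPKM in CML and at 2.14, 1.68 and 3.33 RPKM in naive libraries (log2 fold change 1.86, SE 0.41, limma adjusted p = 0.218). Egr1 was at 35.6, 42.2 and 36.0 RPKM in CML and at 11.1, 14.7 and 23.3 RPKM in naive libraries (log2 fold change 1.22, SE 0.30, limma adjusted p = 0.248). Socs3, an inhibitor of cytokine receptors that signal through Stat3, was at 72.6 ± 14.4 and 41.5 ± 3.17 RPKM (log2 fold change 0.77, SE 0.21, limma adjusted p = 0.282), and Rhob, a stress-induced GTPase, was at 11.9 ± 2.53 and 37.7 ± 8.07 RPKM (log2 fold change -1.58, SE 0.28, limma adjusted p = 0.112). Over the whole list, the groups were apart for 8 of 25 genes, beside 17.1% of all features, with 5 higher in CML (Egr1, Egr2, Socs3, Nr4a1 and Cd69) and 3 lower (Rhob, Klf6 and Ppp1r15a). Of all features, 4.84% were apart and higher in CML and 12.2% apart and lower.

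Of 18 genes for the MAP kinases and the serum response factor partners that act upstream of AP-1, 18 passed the filter. At the unadjusted threshold, 3 were higher and 0 lower in CML (2.61% and 5.94% of all features). The median log2 fold change was -0.08, and 0 were past the adjusted threshold. Crem, a bZIP gene of the Creb family, was at 25.04, 18.3 and 33.4 RPKM in CML and at 8.82, 8.00 and 11.7 RPKM in naive libraries, without overlap (log2 fold change 1.31, SE 0.32, limma adjusted p = 0.245). Map2k3, a kinase of p38, was at 45.7 ± 12.2 and 23.3 ± 2.21 RPKM (log2 fold change 0.91, SE 0.25, limma adjusted p = 0.294), and Mapkapk2, a target of p38, was at 131 ± 38.3 and 84.0 ± 9.72 RPKM with overlapping libraries (log2 fold change 0.60, SE 0.25, limma adjusted p = 0.501). By overlap, 2 of the 18 were apart and higher in CML (Crem and Map2k3) and 2 apart and lower (Elk4 and Map2k7). The shares of all features were 4.84% and 12.2%. Elk4, a partner of serum response factor named after its values were seen, was at 88.4, 80.3 and 83.2 RPKM in CML and at 116, 122 and 116 RPKM in naive libraries, a change short of 1.5-fold (log2 fold change -0.49, SE 0.14, limma adjusted p = 0.325).

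The genes whose pattern over the 6 libraries was most like the mean of the 10 (each gene centered and scaled, 7749 genes ranked, each with a mean level of 10 RPKM or more) were 3110056K07Rik (Pearson r = 0.99), Was (0.98), Cyth4 (0.98), Anapc4 (0.98) and Dtx3 (0.98). Over so few libraries these values describe the ranking only. The mean scaled level of the 10 genes was -0.57, -0.32 and 0.38 in CML replicates 1, 2 and 3 and 0.49, -0.05 and 0.06 in naive replicates 1, 2 and 3. CML replicate 3 and naive replicate 1 were the highest, 1 from each group.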

How the data were processed

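Total RNA of FACS-purified BM Tregs (RNeasy Micro kit) was made into libraries with the SMART-Seq v4 Ultra Low Input kit, which amplifies full-length cDNA, does not mark strand and adds no molecular identifiers, and single-end reads of 76 bases were obtained on an Illumina NextSeq. The authors used SeqMan NGen for read assembly and ArrayStar for expression values, against GRCm38 (mm10 per the labels), with the annotation not given in the sources used here. The deposited values are read as RPKM. The unit is not named, and the reading rests on low values that fall on steps of value times feature length (31.7% to 58.5% of products within 0.05 of whole multiples, leaving out those that define the step) and on sums that differ between libraries (669761 to 815919). Estimated reads follow from these steps and describe depth only. Floors of 3 reads cover counting error only. A deposited RPKM of 0.001 stands for no reads and was set to 0, and 41 names that occur more than once were kept as separate features.

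CML and naive libraries were compared with limma 3.58.1 in R 4.3.3 (trended prior variance) on log2(RPKM + 1) for 13923 features with a mean of at least 1 RPKM, with Benjamini-Hochberg adjustment over all of them. A fold change on this scale understates changes of low genes. Count tests were not run, since the values are not counts. Single shares and sums were compared with exact 2-sided permutation tests over 20 assignments. Coding sequences were aligned with Biopython 1.88, and other steps used Python 3.11.15. Sequences came from RefSeq promoter windows and GENCODE M21 transcripts, both on GRCm38.

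The 10 genes and all lists were chosen with earlier results of these data known. Genes named are the 10, those of each list past an unadjusted p of 0.05 and a fold of 1.5, at most 6 a list, and the 5 genes most like the mean of the 10, with exceptions named in the text. The 17 alternatives covered the pseudocount, filter, scaling, libraries left out, the replicate block, variance prior, library weights and feature classes left out. Replicate numbers come from the titles and belong to different mice. A gene of the marker lists is not reported here.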

Additional observations from a re-analysis of the deposited data

How the results depend on the processing

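None of the 10 genes reached an adjusted p under 0.05 with a fold of 1.5 in any of the 17 alternatives (16 for Atf3, which a minimum mean of 5 RPKM removed). Over all features, the count at this threshold was 24 and became 1 with no filter, 53 after scaling to the same 75th percentile, 53 with quantile normalization, 48 with the same sum without the 10 highest features, 11 with a prior variance without trend, 45 with weights for each library, 12 without microRNA, small nucleolar RNA and T cell receptor features, and 0 to 17 with 1 library left out (0 without naive replicate 1, 2 or 3, and 6 without CML replicate 3). The count at the unadjusted threshold was 1190 and ranged from 742 to 1778 with 1 library left out, with 782 without naive replicate 1 and 742 without naive replicate 2. Of the 10 genes, 0 were past the unadjusted threshold (8.55% of all features), and 0 to 2 with 1 library left out. These were Fos and Fosb without CML replicate 3, where 10.2% of all features were past it. They were Hspa1a and Hspa1b without naive replicate 3 (6.11% of all features) and Atf3 without CML replicate 2 (10.5%). None of the 10 had libraries apart (17.1% of all features), compared with 1 (Dusp1) under quantile normalization (17.999%), 1 under the same 75th percentile (17.7%), 1 under the same sum (17.5%), and 0 to 4 with 1 library left out (4 without naive replicate 3, where 24.5% of all features were apart, and 3 without CML replicate 3, where 30.5% were). The 4 were Junb, Ier2, Hspa1a and Hspa1b. Hspa1a and Hspa1b are near copies, so in these counts they are not separate measurements. Without naive replicate 3, Hspa1a and Hspa1b each gave 1.04. Hspa1a turned to -0.16 with library weights, -0.08 without naive replicate 1 and -0.11 without naive replicate 2, and Hspa1b to -0.17, -0.09 and -0.12. The other 8 genes kept their direction in every alternative run. The median of all features was -0.0068 under quantile normalization and -0.03 without CML replicate 2. With the replicate number as a block, 1 feature and 0 of the 10 genes passed the adjusted threshold, but the numbers do not pair mice (correlations of deviations -0.0048, -0.0016 and -0.019). The causes were not tested. CML replicate 2 has the fewest estimated reads (829181), and Atf3 rests on at most 73 in a library.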

Other observations

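The genes whose pattern over the 6 libraries was most like the mean of Hspa1a and Hspa1b, ranked among 7851 genes after the values had been seen, were Hspa1l (Pearson r = 0.98), Cd2bp2 (0.91), Erc1 (0.90), Drg2 (0.90) and Chordc1 (0.88). Chordc1 encodes a cochaperone of Hsp90 and was at 56.2, 79.9 and 75.5 RPKM in CML and at 44.7, 53.2 and 82.1 RPKM in naive libraries. Erc1, a scaffold protein gene, was at 16.9, 33.5 and 22.9 RPKM in CML and at 16.3, 15.3 and 35.5 RPKM in naive libraries. For both, naive replicate 3 was the highest library and the groups overlapped, which restates the ranking on Hspa1a and Hspa1b.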
